A study of Mus musculus with 10 samples.

Results

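Transcripts of 10 genes that respond to temperature were followed in mouse liver: the heat shock genes Hspa1a, Hspa1b, Hspa8, Hsph1, Hsp90aa1, Dnajb1, Hspd1 and Hspe1, and the cold-inducible genes Cirbp and Rbm3. They were found by symbol, and each of the 10 was listed among the 41388 genes of every library and passed the expression filter that left 13444 genes for testing. RNA-seq of whole liver was available from 10 mice of strain C57B/6J, aged about 12 weeks and fasted on aspen bedding. WT Fasting mice (n = 3) and NAMPT LKO Fasting mice (n = 5) were fasted for 24 h. WT Refed mice (n = 2), which the study calls fed, were fasted for 22 h and then refed for 2 h, so that no group was fed throughout. The study's methods describe the WT mice as floxed littermates (NAMPT fl/fl) that lack Cre. They describe the LKO mice as carrying an Albumin-cre transgene, for excision specific to hepatocytes. NAMPT in other liver cells was not measured separately here. There were no refed NAMPT LKO mice, so the knockout could be compared with WT livers in the fasted state alone.

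Heat shock proteins are chaperones: they bind unfolded protein and, with co-chaperones, help it to fold or pass it on for degradation. Their genes are switched on by the transcription factor HSF1, which binds repeats of the letters GAA and TTC (heat shock elements) when heat or unfolded protein draws chaperones away from it. Cirbp and Rbm3 encode small RNA-binding proteins with the opposite habit, since both rise on mild cooling and fall on warming. In liver, transcripts of both kinds follow the daily rhythm of body temperature and feeding.

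The promoters show how the members differ in the letters that HSF1 recognises. RefSeq start sites of GRCm38.p6 (300 bases, from 250 before to 50 after the start) were held for 7 of the 10 members and not for Hspa8, Hsp90aa1 and Rbm3. The heat shock element was searched as GAANNTTC or TTCNNGAA on both strands, as a run of 3 alternating units, and the cold-responsive octamer once described for Cirbp as TCCCCGCC on either strand. Of all 32851 windows in the table, 15.1% held a 2-unit element, 0.603% a 3-unit run and 5.38% the octamer. The 4 windows below are printed because they cover an inducible HSP70 gene, the HSP110 gene, the start region shared by both mitochondrial chaperonin genes, and the cold-inducible member with the largest fasting difference. Each reads 5′ to 3′ on the strand of its gene, with the matched letters in capitals.
Hspa1b, chr17:34959189-34959488, minus strand: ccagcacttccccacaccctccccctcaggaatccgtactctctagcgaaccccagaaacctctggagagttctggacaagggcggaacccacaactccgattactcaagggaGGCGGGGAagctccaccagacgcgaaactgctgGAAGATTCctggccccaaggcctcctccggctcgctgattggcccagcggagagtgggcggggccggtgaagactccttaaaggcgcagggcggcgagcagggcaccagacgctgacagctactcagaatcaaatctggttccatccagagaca
Hsph1, chr5:149636266-149636565, minus strand: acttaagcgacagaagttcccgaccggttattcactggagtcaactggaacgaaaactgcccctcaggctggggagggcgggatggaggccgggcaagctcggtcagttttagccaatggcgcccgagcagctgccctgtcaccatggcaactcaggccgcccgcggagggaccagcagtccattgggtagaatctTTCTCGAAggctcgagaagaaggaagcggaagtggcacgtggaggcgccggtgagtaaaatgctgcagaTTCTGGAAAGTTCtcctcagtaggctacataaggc
Hspe1, chr1:55087898-55088197, plus strand: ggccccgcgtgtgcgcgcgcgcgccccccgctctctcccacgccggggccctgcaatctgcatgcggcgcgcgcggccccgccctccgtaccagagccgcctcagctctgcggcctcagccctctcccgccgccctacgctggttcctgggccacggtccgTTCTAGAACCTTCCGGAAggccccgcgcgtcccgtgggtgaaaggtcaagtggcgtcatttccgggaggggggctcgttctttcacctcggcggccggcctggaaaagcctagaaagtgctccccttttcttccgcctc
Cirbp, chr10:80167589-80167888, plus strand: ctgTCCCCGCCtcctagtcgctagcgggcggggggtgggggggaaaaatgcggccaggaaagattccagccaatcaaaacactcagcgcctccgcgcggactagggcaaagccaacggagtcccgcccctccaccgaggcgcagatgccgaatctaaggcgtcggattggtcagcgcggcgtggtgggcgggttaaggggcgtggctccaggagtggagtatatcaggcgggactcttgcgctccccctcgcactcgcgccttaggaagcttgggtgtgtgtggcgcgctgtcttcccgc
In Hspa1b the element GAAGATTC began 104 bases before the start site, and the octamer was present on the other strand. The window of Hspa1a differed from it at 4 of 300 bases and held the same matches. The Hsph1 window printed is 1 of 2. It held 3 matches of 2 units, and a pair of them overlapped to form the 3-unit run TTCTGGAAAGTTC, 15 bases after the start. In the other window, which has a different start site, the same run began 36 bases after the start. The Hspe1 window held 2 overlapping 3-unit runs, TTCTAGAACCTTC and GAACCTTCCGGAA, the first beginning 89 bases before the start. Hspd1 is transcribed the other way from the same region, and 1 of its 2 windows held the same stretch on its own strand. The first of 2 Cirbp windows held TCCCCGCC 247 bases before the start and no heat shock element. Neither Dnajb1 window held a heat shock element, and 1 of them held the octamer on the other strand. A match describes the letters only, and binding was not measured.

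Libraries held 30603080 to 43434139 counts. Nampt, the targeted gene, stood at 62.99 to 140.9 TMM-normalized CPM (CPM, each gene's share of its library's counts, here after edgeR's trimmed mean of M values scaling) in the 5 WT livers and at 11.8 to 15.3 in the 5 LKO livers, and was the 1 gene called between the genotypes (log2 fold change −2.81, SE 0.22, adjusted p = 0.00102). A pair of fasted libraries stood apart. NAMPT LKO Fasting mouse 5 had 21.1% of its counts on the mitochondrial genome and WT Fasting mouse 3 had 7.42%, with 10.4% to 12.9% in the other 8, and fold differences in mouse 5 followed GC content (Spearman's rho −0.565 across genes). Results are therefore also given without those libraries, an alternative chosen after the values were seen. Summed hepatocyte markers reached 71740 to 118900 CPM and striated muscle markers at most 0.493 CPM. No marker of 10 cell type lists was called between WT Fasting and WT Refed or between the genotypes. Summed Kupffer cell and macrophage markers were nevertheless higher without overlap in WT Fasting (172, 166 and 289 CPM) than in WT Refed (147 and 125 CPM), as were endothelial markers (204 to 223 against 185 and 190.3 CPM), and their part in the WT differences was not tested.

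In WT mice, Hspa8 and Hsp90aa1, which encode the cytosolic chaperones HSC70 and inducible HSP90, were lower and both cold-inducible transcripts were higher after the fast than after refeeding. Of the 10 members, 4 passed the test: Hspa8 and Hsp90aa1 were lower in WT Fasting and Cirbp and Rbm3 were higher (edgeR's quasi-likelihood test, Benjamini-Hochberg adjustment over 13444 genes). Across all genes tested, 7.04% passed in this comparison. The groups did not overlap for 7 members, beside 49.7% of all genes, so separation alone was common with 2 against 3 livers. The median log2 fold change was −0.73 over the 8 heat shock genes and 0.04 over all genes. Without both libraries that stood apart, 8 members passed, beside 17.0% of all genes. The calls rested on both refed mice, since leaving either out left 1 liver in that group. Without refed mouse 1 and 2, Hspa8 then differed by −1.23 and −1.08 and Cirbp by 1.77 and 1.66. Changes in the share of a cell type and changes of RNA per cell cannot be told apart in whole liver. Each p-value sets a difference against a spread between mice estimated from all 10 livers, LKO livers included.

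Hspa1a and Hspa1b encode the stress-inducible cytosolic HSP70, the chaperone that rises most on heat shock. They are single-exon neighbours on the minus strand (ENSMUSG00000091971, chr17:34969190-34972156, and ENSMUSG00000090877, chr17:34956436-34959238, GRCm38). Hspa1b measured 151 and 169 TMM-normalized CPM in the WT Refed livers. In WT Fasting it measured 41.7, 33.3 and 226 CPM in mice 1, 2 and 3. The NAMPT LKO Fasting livers gave 48.3, 101, 40.3, 10.4 and 67.5 CPM in mice 1 to 5. WT Fasting mouse 3 thus lay above both refed livers while every other fasted liver lay below them. Hspa1a ran at 8.43 and 9.43 CPM in WT Refed and 2.87, 3.35 and 26.4 CPM in WT Fasting, with mouse 3 again highest. In the LKO livers it ran at 3.08, 8.85, 2.74, 0.87 and 6.33 CPM, with mouse 4 lowest. The WT Fasting against WT Refed difference was −0.67 on the log2 scale for Hspa1b (SE 0.85, adjusted p = 0.692) and 0.29 for Hspa1a (SE 0.95, adjusted p = 0.893), neither of which passed. Without WT Fasting mouse 3 the differences were −2.10 (adjusted p = 0.126) and −1.53 (adjusted p = 0.295). That liver also had the highest Nampt level, 140.9 CPM, the lowest mitochondrial share and the highest summed macrophage markers (289 CPM, against 121 to 232 in the other 9 livers) and leukocyte markers (16.2 CPM, against 6.48 to 11.6), and their part in its HSP70 level was not tested.

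The pair are near copies, so their split is uncertain. Of the 50-base windows of the Hspa1b transcript, 62.3% also occurred in another annotated transcript, and for Hspa1a 66.3% did. As counted, Hspa1b made up 89.6% to 94.7% of the pair's counts in each liver, so the sum followed Hspa1b. Among the 8 fasted livers of both genotypes the highest Hspa1b value was 21.7 times the lowest. The ratio was 9.75 without WT Fasting mouse 3 and 6.79 without LKO mouse 4. The 2 refed livers, too few to set a range against, differed by 1.12 times.

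Hspa8 encodes HSC70, the constitutive member of the family, and was the most abundant transcript of the 10 (ENSMUSG00000015656, chr9:40800984-40805200, plus strand). Per length, its deposited RPKM (CPM divided by exonic length) averaged 814 in WT Refed, 355 in WT Fasting and 342 in NAMPT LKO Fasting livers. WT Refed livers measured 3109 and 3458 TMM-normalized CPM and WT Fasting livers 1506, 1185 and 1756 CPM. LKO livers measured 1337, 1597, 1523.5, 1077 and 1861 CPM, all below both refed livers. Hspa8 was 2.21-fold lower in WT Fasting than in WT Refed (log2 fold change −1.15, SE 0.22, adjusted p = 0.0122). In the LKO livers it was 2.22-fold lower than in WT Refed (adjusted p = 0.00473). The 2 comparisons share the refed livers. About 52.7% of the transcript's 50-base windows also occur in other annotated transcripts, chiefly Gm15459.

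Hsph1 encodes HSP110, which exchanges nucleotide on HSP70 and so helps it release its client (ENSMUSG00000029657, chr5:149614287-149636376, minus strand). It was tight in WT Refed, at 252 and 255 TMM-normalized CPM. WT Fasting livers gave 55.2, 46.9 and 145 CPM, and LKO livers gave 52.9, 91.98, 75.4, 30.1 and 132 CPM. All 8 fasted livers lay below both refed livers, with WT Fasting mouse 3 and LKO mouse 5 nearest to them. The difference between WT Fasting and WT Refed was −1.62 (SE 0.56) and did not pass (adjusted p = 0.111). Without WT Fasting mouse 3 it was −2.32 and passed (adjusted p = 0.0308). NAMPT LKO Fasting livers held 3.31-fold less than WT Refed (log2 fold change −1.73, SE 0.49, adjusted p = 0.044). No 50-base window of this transcript was shared with another annotated transcript.

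Hsp90aa1 encodes the inducible form of cytosolic HSP90, which holds kinases and steroid receptors in a form ready for activation (ENSMUSG00000021270, chr12:110690605-110702728, minus strand). WT Refed livers measured 915 and 831 TMM-normalized CPM, and WT Fasting livers 238, 228 and 351 CPM. LKO livers measured 250.1, 324, 228, 162 and 578 CPM. No fasted liver reached the refed ones, and LKO mouse 5 was the highest of the 8. The gene was 3.21-fold lower in WT Fasting than in WT Refed (log2 fold change −1.68, SE 0.42, adjusted p = 0.0363). It was 2.83-fold lower in LKO livers than in WT Refed (adjusted p = 0.0261). Of the transcript's 50-base windows, 58.5% also occur in other annotated transcripts, chiefly Gm12346.

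Dnajb1 encodes HSP40, the J-protein that delivers clients to HSP70 and starts its ATP hydrolysis (ENSMUSG00000005483, chr8:83608175-83611902, plus strand). Levels were 62 and 57.6 TMM-normalized CPM in WT Refed and 31.6, 30.5 and 63.3 CPM in WT Fasting. LKO livers gave 30.5, 42.1, 33.1, 21.1 and 28.3 CPM. WT Fasting mouse 3 exceeded both refed livers, as it did for the HSP70 pair, and the LKO livers all lay below them. Neither the WT difference (−0.52, SE 0.32, adjusted p = 0.375) nor the LKO against WT Refed difference (−0.95, SE 0.28, adjusted p = 0.0558) passed. Without both libraries that stood apart, the differences were −0.95 (adjusted p = 0.0248) and −0.92 (adjusted p = 0.0098).

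**Figure D1:**
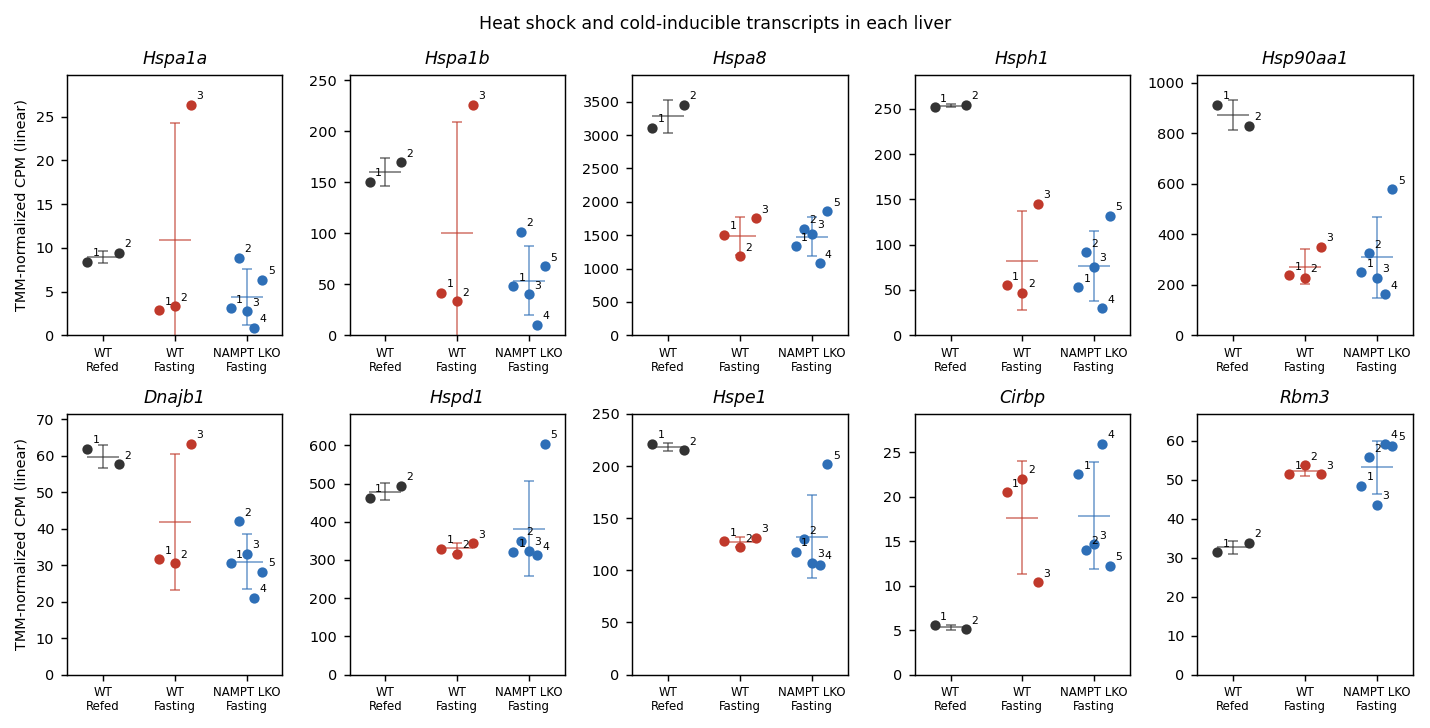
TMM-normalized CPM (linear axis from 0) of each member in each liver, with points numbered by mouse, horizontal bars for the group mean and error bars for 1 SD, which are drawn no lower than 0. WT Refed livers sit close together in every panel, WT Fasting mouse 3 rises above them for Hspa1a, Hspa1b and Dnajb1, and NAMPT LKO Fasting mouse 5 stands above the other fasted livers for Hspd1 and Hspe1.

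Hspd1 and Hspe1 encode HSP60 and its lid HSP10, which together fold protein inside mitochondria. They lie head to head on chromosome 1 with overlapping 5′ ends (Hspd1, ENSMUSG00000025980, chr1:55077835-55088243, minus strand, and Hspe1, ENSMUSG00000073676, chr1:55088132-55091307, plus strand), and without a stated strand setting reads in the overlap cannot be assigned. Other annotated transcripts, chiefly Hspd1-ps3, held 44.8% of the 50-base windows of Hspd1, and 8.2% of those of Hspe1 were shared. Hspd1 measured 463 and 495 TMM-normalized CPM in WT Refed and 329.8, 317 and 345 CPM in WT Fasting. In LKO mice 1 to 5 it measured 320.2, 351, 324, 312 and 604 CPM. On this scale mouse 5 exceeded both refed livers, and the other 4 LKO livers lay between 312 and 351 CPM, around the WT Fasting values. The library of mouse 5 had the lowest TMM scaling factor, 0.854, which raises its values. By deposited CPM its Hspd1 was 507, between the refed livers at 478 and 509. Hspe1 followed, at 221 and 215 CPM in WT Refed and 128, 122 and 131 CPM in WT Fasting. LKO livers gave 118, 129.6, 107, 105 and 202 CPM, with mouse 5 again highest but below the refed livers.

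The WT Fasting against WT Refed difference was −0.53 for Hspd1 (SE 0.25, adjusted p = 0.243) and −0.78 for Hspe1 (SE 0.24, adjusted p = 0.0763), although the groups did not overlap for either gene. LKO mouse 5, which enters the shared estimate of spread, had 21.1% of its counts on the mitochondrial genome. Without that liver the same 2 differences were −0.53 (adjusted p = 0.00398) and −0.78 (adjusted p = 0.00124). Calls over all genes rose without it too, from 7.04% to 16.6% here and from 11.2% to 21.1% between LKO and WT Refed. Against WT Refed, the LKO difference then moved from −0.32 to −0.55 for Hspd1 (adjusted p = 0.002) and from −0.72 to −0.92 for Hspe1 (adjusted p = 0.000309). The ratio of Hspd1 to Hspe1 RPKM was 1.17 and 1.28 in WT Refed, 1.44 to 1.465 in WT Fasting and 1.51 to 1.69 in the LKO livers. Differences in this ratio were not tested.

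Cirbp encodes the cold-inducible RNA-binding protein, which binds the ends of messenger RNAs and affects their stability and polyadenylation (ENSMUSG00000045193, chr10:80165985-80172786, plus strand). It was the least abundant member in WT Refed by RPKM, at a mean of 2.11. WT Refed livers measured 5.54 and 5.12 TMM-normalized CPM and WT Fasting livers 20.5, 22 and 10.4 CPM. LKO livers measured 22.5, 14, 14.6, 25.9 and 12.2 CPM. Every fasted liver lay above both refed livers, with WT Fasting mouse 3 the nearest. Cirbp was 3.30-fold higher in WT Fasting than in WT Refed (log2 fold change 1.72, SE 0.39, adjusted p = 0.0236). It was 3.35-fold higher in the LKO livers than in WT Refed (log2 fold change 1.74, adjusted p = 0.0136).

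Rbm3, whose product supports translation in the cold, lies on the X chromosome (ENSMUSG00000031167, chrX:8138975-8145880, minus strand). Its levels were 31.4 and 33.9 TMM-normalized CPM in WT Refed and 51.5, 53.7 and 51.4 CPM in WT Fasting. LKO livers gave 48.5, 55.7, 43.6, 59.2 and 58.8 CPM. The fasted livers again all exceeded the refed ones, and their spread was narrow, the highest being 1.36 times the lowest. Rbm3 was 1.60-fold higher in WT Fasting than in WT Refed (log2 fold change 0.68, SE 0.15, adjusted p = 0.0193). It was 1.63-fold higher in LKO livers than in WT Refed (adjusted p = 0.00869). An antisense gene, Rbm3os, overlaps it and had at most 14 counts in a library.

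Loss of hepatocyte NAMPT left no member past the threshold in the fasted state. Of the 10 members, 0 passed between NAMPT LKO Fasting and WT Fasting by edgeR's quasi-likelihood test, DESeq2, limma's voomWithQualityWeights or edgeR's exact test, and 0 had an unadjusted p under 0.05. Of all genes, 0.00744% passed and 811 had an unadjusted p under 0.05. The groups did not overlap for 0 members, beside 3.99% of all genes. A p that misses the threshold does not show equal levels, and the intervals differed in width. For Rbm3 the difference was 0.03 with a 95% interval from −0.22 to 0.28, and for Hspa8 it was 0.00 (−0.0033) with an interval from −0.40 to 0.39. For Cirbp it was 0.02 with an interval from −0.62 to 0.66. For Hspa1a (−1.32, from −2.98 to 0.34) and Hspa1b (−0.91, from −2.39 to 0.58) the intervals reached far below 0 and less far above it. Without WT Fasting mouse 3 both turned positive, at 0.49 and 0.51.

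Between NAMPT LKO Fasting and WT Refed, which shares its refed livers with the first comparison, 5 of the 10 members passed, Hspa8, Hsph1 and Hsp90aa1 lower and Cirbp and Rbm3 higher, beside 11.2% of all genes. The groups did not overlap for 8 members, beside 33.5% of all genes. The median over the 8 heat shock genes was −1.09, and over all genes 0.03. Genotype and feeding differ together in this comparison and cannot be told apart in it. Summed cholangiocyte markers were 34.0 to 54.5 CPM in LKO livers and 15.2 to 22.4 CPM in the 5 WT livers, and 2 of 5 were called higher in LKO than in WT Refed, as were 1 of 6 endothelial and 1 of 6 stellate cell markers. The part of other cell types in these differences was not tested.

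**Figure D2:**
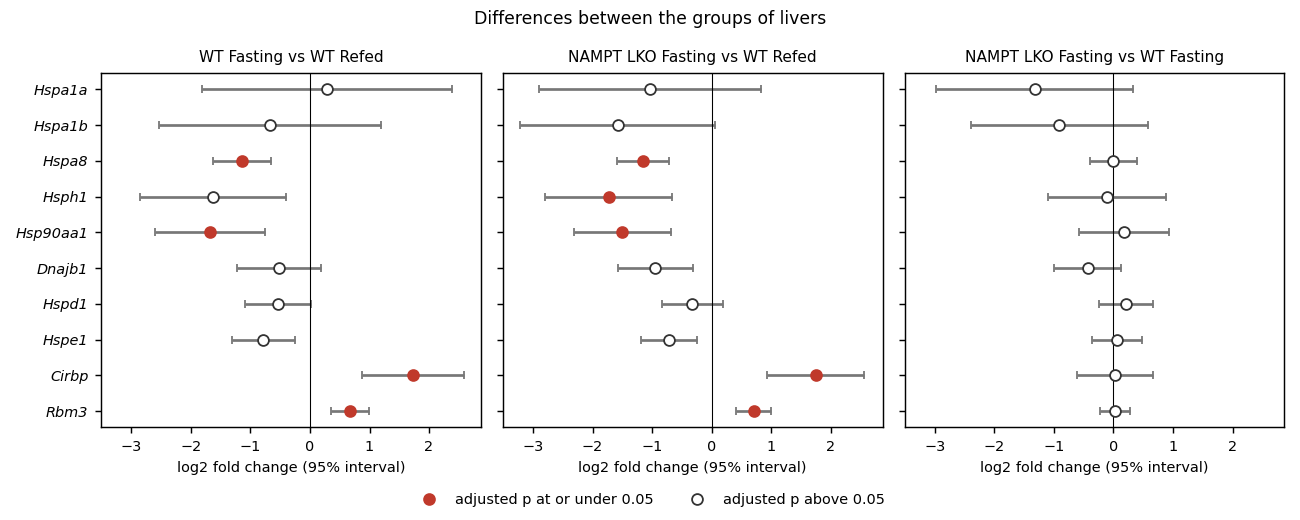
Log2 fold change of each member with its 95% interval in the 3 comparisons, with filled points for an adjusted p at or under 0.05. The same 4 genes are filled in both comparisons with WT Refed, joined by Hsph1 in the LKO livers, and every interval between the genotypes spans 0.

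Within the fasted livers the mice kept a similar order for many members. LKO mouse 4 had the lowest level of all 8 heat shock genes and the highest of Cirbp and Rbm3. WT Fasting mouse 3 had the highest Hspa1a, Hspa1b, Hsph1 and Dnajb1 and the lowest Cirbp. Over the 8 fasted livers of both genotypes, log2 CPM of Cirbp fell as that of Hsph1 rose (Pearson's r = −0.974, exact permutation p = 4.96e-05, adjusted p = 0.000446 over 9 relations, Spearman's rho −0.976, exact permutation p = 0.000397). With the 2 livers farthest from the median of Hsph1 left out (WT Fasting mouse 3 and LKO mouse 4), r was −0.962. LKO mouse 5, which stood apart, remained in. WT Fasting mouse 3 and LKO mouse 5 had the lowest Cirbp and the highest Hsph1 values of the 8 livers. The relation was not computed without both of them. How many other genes relate to Cirbp as closely over these livers was not tested. The 9 relations all have Cirbp as partner, a choice made after the values were seen, and pairs without Cirbp were not examined. Moreover, each library's values share their total in the denominator.

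The other heat shock genes followed Cirbp less closely. For Hspa8 r was −0.907 (exact permutation adjusted p = 0.00603) and for Hspa1b −0.849 (exact permutation adjusted p = 0.00747). Without the 2 livers farthest from its own median, r became −0.884 for Hspa8, with WT Fasting mouse 2 and LKO mouse 4 left out. For Hspa1b it became −0.657, with WT Fasting mouse 3 and LKO mouse 4 left out. For Dnajb1 r was −0.748 and rested on WT Fasting mouse 3 and LKO mouse 4, since it was −0.253 without them. For Hspd1 and Hspe1 the p of r did not pass (exact permutation adjusted p = 0.166 for each), while rho was −0.881 and −0.833. Without the 2 livers farthest from the median of each gene, r was −0.882 for Hspd1 but −0.244 for Hspe1. Rbm3, the other cold-inducible gene, showed r = 0.08 with Cirbp (exact permutation p = 0.843).

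**Figure D3:**
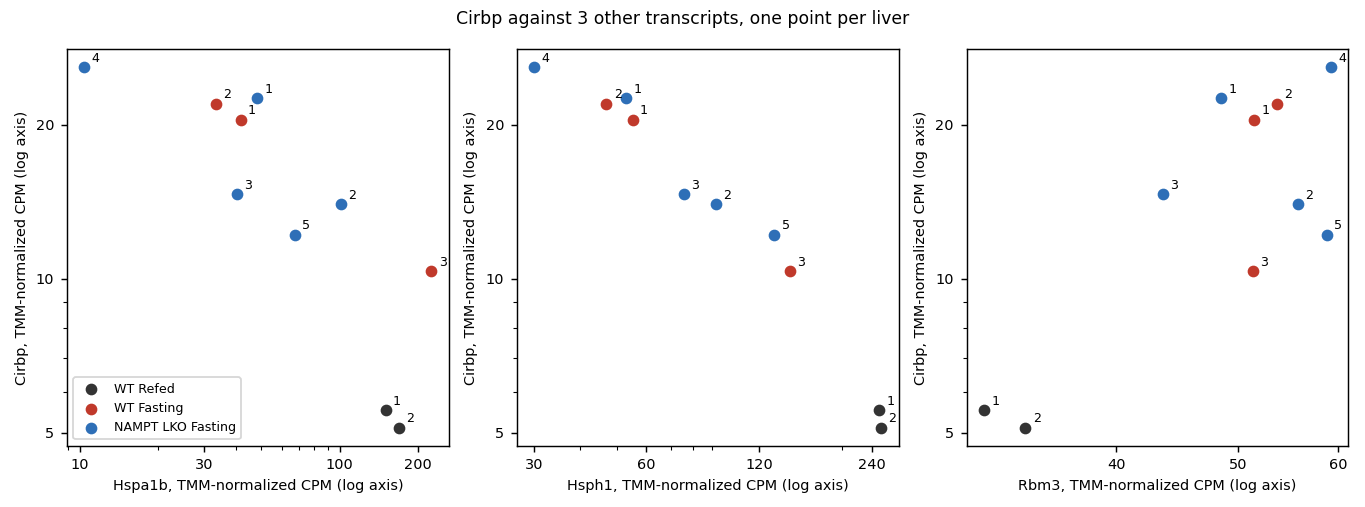
Cirbp against Hspa1b, Hsph1 and Rbm3 in each liver, as TMM-normalized CPM on log axes, with points numbered by mouse. Across fasted livers Cirbp falls from 25.9 to 10.4 CPM as Hsph1 rises from 30.1 to 145 CPM, while Rbm3 stays between 43.6 and 59.2 CPM.

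The genes most like a member over all 10 livers, by Pearson's r of log2 CPM among 9137 genes, are given as a description. For Hspa8 they were Tmem33 (0.988), Stip1 (0.983) and Atp2a2 (0.981), and Stip1 encodes HOP, which passes clients from HSP70 to HSP90. Hspa1b was most like Oxsr1 (0.956), Hspb1 (0.955) and Gm8326 (0.951), of which Hspb1 encodes the small heat shock protein HSP27. For Hspd1 they were Ptpn2 (0.985), Ranbp1 (0.979) and Cdk11b (0.978). Cirbp was most like Ranbp10 (0.979), Zbtb11os1 (0.978) and Adra1a (0.961). Differences between refed and fasted livers are part of each r.

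Other genes of protein folding and of temperature-responsive splicing, listed by role, numbered 88 tested genes in 8 lists. The lists were chosen with earlier results of these data known, so their shares are a description. Between WT Fasting and WT Refed 18 passed, 15 lower and 3 higher (20.5%, beside 7.04% of all genes). Between the genotypes 0 passed, beside 0.00744% of all genes. Between NAMPT LKO Fasting and WT Refed 25 passed, 20 lower and 5 higher (28.4%, beside 11.2% of all genes). Of the HSF list, 0 of 4 tested genes passed in WT livers. Hsf1 itself measured 22.7 and 22.6 CPM in WT Refed, 16.4, 15.3 and 17.6 CPM in WT Fasting and 10.9 to 17.6 CPM in the LKO livers. It was lower in LKO than in WT Refed (log2 fold change −0.66, adjusted p = 0.0291).

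Some partners of HSP70 and HSP90 were lower in fasted WT livers. Of 14 HSP90 and co-chaperone genes 5 were lower, with a list median of −0.72, and 0 were higher. Fkbp4, the immunophilin of steroid receptor complexes, averaged 152 CPM in WT Fasting and 344 CPM in WT Refed (log2 fold change −1.18, adjusted p = 0.00421). Stip1 averaged 85.9 and 220.3 CPM (−1.36, adjusted p = 0.018). Hsp90ab1, the constitutive cytosolic HSP90, named after its values were seen, averaged 1167 CPM in WT Fasting and 1956 CPM in WT Refed and did not pass (−0.75, adjusted p = 0.155). Ptges3, which encodes the HSP90 co-chaperone p23, differed by −0.60 (adjusted p = 0.0211). Of 19 J-proteins and exchange factors 3 were lower and 1 higher. Bag2, an inhibitor of the ubiquitin ligase CHIP, averaged 1.30 CPM in WT Fasting and 5.05 CPM in WT Refed (−1.95, adjusted p = 0.00433), and Dnaja1, another HSP40, 200.6 and 452 CPM (−1.17, adjusted p = 0.0352). Dnajb2 differed by −0.82 (adjusted p = 0.00488). Of 6 other HSP70 and HSP110 genes 2 were lower, Hspa13 (−1.28, adjusted p = 0.000852) and Hspa4l (−1.63, adjusted p = 0.00778).

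Beyond these, 3 of 14 chaperonin TRiC and prefoldin genes were lower in WT Fasting: Cct6a (−0.53), Cct7 (−0.53) and Cct3 (−0.62). Of 4 tested small heat shock genes 0 passed in WT livers, and Hspb8 was lower in LKO than in WT Refed (−1.04, adjusted p = 0.0184), as was the exchange factor Bag3 (−1.27, adjusted p = 0.0177). Of 12 other mitochondrial chaperone and protease genes 0 were lower in WT Fasting and 2 were higher, with a list median of 0.07 beside 0.04 over all genes. Grpel2, an exchange factor of mitochondrial HSP70, averaged 43.5 CPM in WT Fasting and 20.2 CPM in WT Refed (1.10, adjusted p = 0.00133). Clpx, the unfoldase of the ClpXP protease, averaged 204 and 99.4 CPM (1.04, adjusted p = 0.015). Clpp, its protease subunit, was lower in LKO than in WT Refed (−0.32, adjusted p = 0.045).

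Of 15 splicing factors and kinases that respond to temperature, 2 were lower in WT Fasting (background 7.04%), Srsf3 (−0.74, adjusted p = 0.0329) and Srsf7 (−0.87, adjusted p = 0.0396). In LKO against WT Refed Srsf7 was lower (−0.88, adjusted p = 0.0186), and Clk1, the kinase whose activity tracks body temperature, was higher (0.80, adjusted p = 0.0429), as was Srsf5 (1.00, adjusted p = 0.0354). Of 15 clock genes 3 passed in WT livers, against the same background. Per2 (−1.71, adjusted p = 0.0232) and Dbp (−1.93, adjusted p = 0.0349) were lower in WT Fasting and Per1 was higher (0.72, adjusted p = 0.0399). In LKO against WT Refed, Per2 (−1.94, adjusted p = 0.0049), Dbp (−1.72, adjusted p = 0.0243) and Ciart (−1.998, adjusted p = 0.0416) were lower. The hour of collection is not given in the labels, and its part in the members' levels was not tested.

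**Figure D4:**
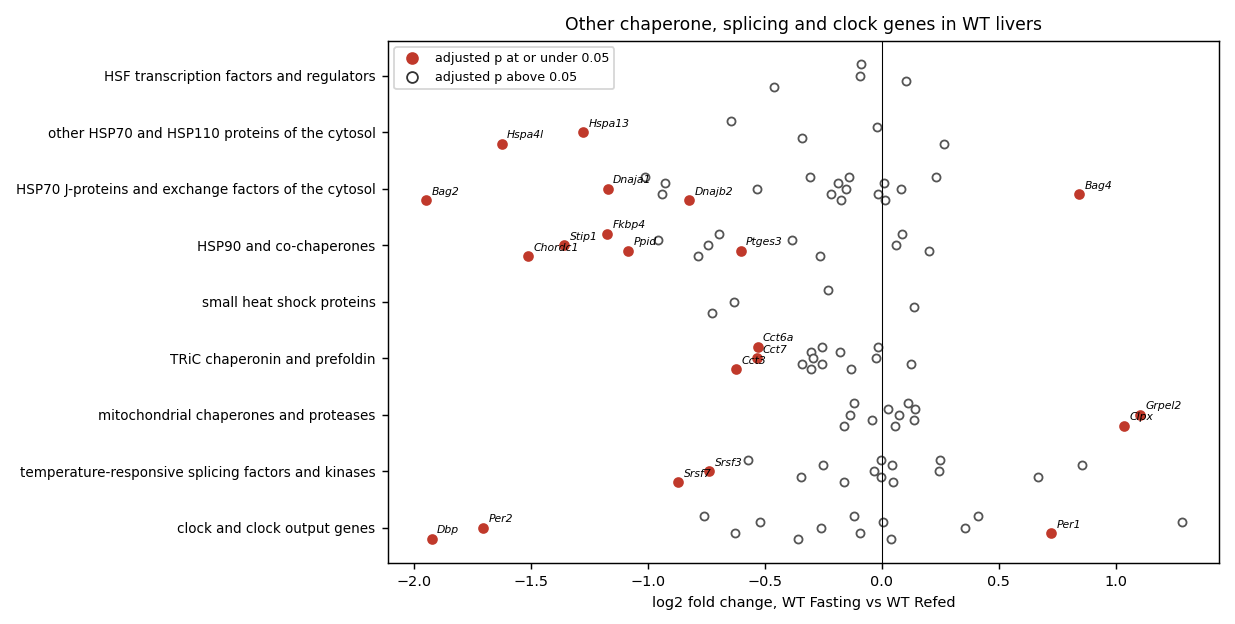
Log2 fold change between WT Fasting and WT Refed for each tested gene of 9 lists, 1 row a list, with filled, named points for an adjusted p at or under 0.05 and small vertical offsets for legibility. The 15 filled points of the 8 folding and splicing lists that lie left of 0 include Bag2 at −1.95, and 3 lie right of 0, with Grpel2 at 1.10.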

How the data were processed

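Liver RNA-seq of 10 mice was analysed. The authors aligned reads with STAR 2.5.1a to GRCm38 and deposited counts per Ensembl gene from featureCounts 1.4.6-p5 (versions from the submitters' processing notes). The authors also deposited CPM, the counts scaled by the library total, and deposited RPKM, which divides CPM by exonic length. The strand setting of the counting is not given in the sources used here. Groups came from the sample labels, which give 24 h of fasting where the paper's text on these samples gives a shorter fast and fed controls.

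After leaving out rRNA genes, a gene was tested if any library exceeded 1 CPM. TMM-scaled counts entered the quasi-likelihood test of edgeR 4.0.16 in R 4.3.3, with all 10 libraries in one fit and calls at an adjusted p at or under 0.05. Levels are TMM-normalized CPM. The code was tested on simulated data. Alternatives were DESeq2 1.42.0, voomWithQualityWeights of limma 3.58.1, edgeR's exact test, other scalings and filters, removal of GC trends, a replicate block, and leaving out single libraries or both that stood apart. No replicate pair was within sampling noise of each other. Genes named were Nampt, the members, up to 3 called genes with the smallest adjusted p per list and comparison, and the 3 most like each of 4 members. Members and lists were chosen with earlier results of these data known. Promoter windows were taken from RefSeq (GRCm38.p6).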

Additional observations from a re-analysis of the deposited data

Results flagged for a closer look

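The 5 NAMPT LKO Fasting livers were screened for a liver far from the rest, in 11 genes (the 10 members and Nampt). Hspd1 in NAMPT LKO Fasting mouse 5, at 604 TMM-normalized CPM, lay above the other 4 LKO livers by 0.868 of the group's range, and Hspe1 in the same mouse, at 202 CPM, by 0.749 of the range. On this scale both exceed Dixon's 95% limit of 0.71 for 5 samples. Mouse 5 had a TMM scaling factor of 0.854, which raises its values. By deposited CPM, Hspd1 was 507 in mouse 5 and 309 to 348 in the other LKO livers. Hspe1 was 169 in mouse 5 and 104 to 128 in the others. The screen was not run on deposited CPM, so the part of the scaling in these flags was not tested. Chance flags about 1 in 20 groups, or 0.55 of 11. That library also had the highest mitochondrial share, 21.1%, whose part in both values was not tested.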

How the results depend on the processing

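Against WT Refed every member but Hspa1a kept its direction under every alternative run. Calls, but not the size of the differences, rested on both refed mice, since leaving either out left 1 liver in that group. Without refed mouse 1 and 2, Hspa8 differed by −1.23 and −1.08 and Cirbp by 1.77 and 1.66 between the WT groups. Between WT Fasting and WT Refed 4 members passed, beside 7.04% of all genes. With 1 fasted library left out 1 to 6 passed, beside 3.47% to 16.6% of all genes. The 1 was without WT Fasting mouse 1 or 2, where 4.0% and 3.47% of all genes passed. Between NAMPT LKO Fasting and WT Refed 5 passed, beside 11.2% of all genes. With 1 fasted library left out at most 7 passed, beside 7.32% to 21.1% of all genes. Without LKO mouse 1 or 3 the number was 3, where 8.77% and 8.16% of all genes passed. With voomWithQualityWeights 8 and 9 members passed, beside 24.8% and 31.8% of all genes, and without both libraries that stood apart 8 and 8, beside 17.0% and 24.8%. DESeq2 gave 5 and 7, beside 12.2% and 16.7%. The cause was not tested. For Hspa1a, WT Fasting against WT Refed (0.29) became −0.97 with voom and −1.52 without both libraries, and ran from −1.53 (without WT Fasting mouse 3) to 0.73 with 1 library left out. Between the genotypes 0 members passed under every alternative, and differences, those of Hspa1a and Hspa1b included, changed sign. Without both libraries they were 0.31 for Hspa1a, 0.42 for Hspa1b, 0.042 for Hspa8, 0.30 for Hsph1, 0.030 for Dnajb1, −0.12 for Hspe1, −0.14 for Cirbp and −0.022 for Rbm3. With voom they were 0.066 for Hspa8, 0.12 for Hsph1, −0.078 for Hspe1, −0.12 for Cirbp and −0.015 for Rbm3. Fitting only the 2 groups gave 0.005 for Hspa8, library size alone −0.0067 for Rbm3, and removal of the GC trend −0.0069 for Hspe1 and −0.059 for Rbm3. With 1 library left out the ranges were −1.78 to 0.49 for Hspa1a, −1.32 to 0.51 for Hspa1b, −0.14 to 0.14 for Hspa8, −0.40 to 0.58 for Hsph1, −0.18 to 0.40 for Hsp90aa1, −0.016 to 0.28 for Hspd1, −0.14 to 0.13 for Hspe1, −0.25 to 0.21 for Cirbp and −0.016 to 0.090 for Rbm3. Replicate numbers are shared by the fasted mice 1 to 3 of each genotype, but their deviations correlated by 0.08, 0.16 and 0.10, so the numbers were not taken to pair mice, although each was the highest for its mouse. With a replicate block over those 6 libraries, 0 members passed, Nampt was −2.78 (adjusted p = 0.099), Hspa8 0.017, Hsp90aa1 −0.012, Hspe1 −0.11, Cirbp −0.0024 and Rbm3 −0.091. The same 6 libraries with no replicate block gave Nampt −2.87 (adjusted p = 0.264), Hspa8 0.0032, Hsp90aa1 −0.025, Hspe1 −0.10, Cirbp −0.045 and Rbm3 −0.084. Every member had at least 222 counts in every library except Hspa1a, which had 32 at the lowest.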

Other observations

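Genes other than the members whose promoter windows held a 3-unit heat shock element were examined after the members' values were seen, as a description. Of 54 such genes tested, 4 were lower and 1 was higher in WT Fasting than in WT Refed, 9.26%, beside 7.57% of the 9843 tested genes with a window, and their median log2 fold change was 0.00 (0.0038) beside 0.02. The co-chaperone gene Chordc1 was among the lower ones (−1.51, adjusted p = 0.0482). Between the LKO livers and WT Refed, 5 were lower and 3 higher, 14.8% beside 12.0%.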
